A study of Mus musculus with 9 samples.

Results

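The genes of glycolysis and of pyruvate metabolism were followed across 3 mouse pluripotent cell lines, with 3 arrays for each line. The list holds 37 genes, from the glucose transporters to the mitochondrial pyruvate carrier. Members were found by gene symbol in the platform annotation, and each is represented by its brightest probe set, by mean log2 intensity over the 9 arrays. This gave a value for 32 of the 37 members, among 19938 genes that had a probe set with a single symbol. Gapdh stood only in probe sets that list several symbols and is given no value. Gpi1, Eno1, Pfkfb1 and Mpc2 are not named by any probe set in the annotation used here.

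P19 is a mouse embryonal carcinoma line, that is, a line of tumour cells that keep features of the early embryo. P19 NTES7 is 1 of several pluripotent stem cell lines that were established from blastocysts cloned with P19 nuclei, so that its cells carry the P19 genome after passage through an oocyte. The name P19 NTES7 is that of the array tables of the study, and the labels call the line N7P8 or only stem cells derived from P19. R1 is a mouse embryonic stem cell line from a normal embryo. All 3 lines were grown in ES medium with 15% FBS and 1000 units/ml of leukemia inhibitory factor, and according to the labels feeder cells were cleared before the RNA was taken. By the methods, only the stem cells from P19 and other pluripotent stem cells were grown on mouse embryonic fibroblasts, and P19 was not, so that culture on feeders and the difference of P19 from the other 2 lines cannot be told apart. Each group is 1 line, so each comparison is between these lines, and its error is the spread between the 3 biological repeats of each.

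Glycolysis turns glucose into pyruvate. Hexokinase and phosphofructokinase catalyse its early committed steps, and pyruvate kinase its last. Pyruvate is then either reduced to lactate by lactate dehydrogenase and exported by monocarboxylate transporters, or carried into mitochondria and oxidised by the pyruvate dehydrogenase complex. The pyruvate dehydrogenase kinases switch that complex off and its phosphatases switch it on. Mouse ES cells are known to use both routes, and many enzymes of the pathway exist as isoforms that differ in regulation and in the tissue where they are most used.

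Values are RMA intensities on a linear scale, whose median over all probe sets was 16.5 to 17.5 on the 9 arrays. Intensities carry SDs over the 3 arrays of a line, and log2 differences carry limma's standard error. A gene is called higher or lower where its limma p, adjusted over all probe sets of the comparison by the Benjamini-Hochberg method, was under 0.01. No filter on low values was applied, so that all 32 members were tested. In at least 1 line, 3 of them (Pdk4, Pfkfb4 and Mpc1) lay below the array median on every array. Intensities of different genes are not compared, because probe sets differ in brightness. In bulk RNA, fewer cells of a type and less RNA per cell cannot be told apart.

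The lines differed in the markers of pluripotent cells. Pou5f1, a defining factor of such cells, had means of 2196 in P19, 1471 for P19 NTES7 and 1470.1 for R1. Dppa5a had means of 19.5, 125 and 2238, Zfp42 of 19.7, 41.7 and 289, and Esrrb of 9.26, 32.4 and 229.8 in the same order, so that these 3 were low in P19, while Utf1 was lowest in P19 NTES7 (471, 73.5 and 584). Nanog had means of 178, 627 and 913. Of the 12 markers, 7 were higher and 2 lower in R1 than in P19, where 10.7% and 14.3% of all genes were. In P19 NTES7 against P19, 5 were higher and 2 lower (4.89% and 7.25% of all genes). In P19 NTES7 against R1, 1 was higher and 8 were lower (9.23% and 9.44% of all genes). Fibroblast markers were also present, and their sum was lowest in P19. The summed intensity of the 21 measured ones was 794 to 820 in P19, 1919 to 2468 for P19 NTES7 and 2815 to 3378 for R1, and Dcn, a matrix proteoglycan of fibroblasts, was at 8.55, 8.17 and 8.63 in P19, 88.7, 78.0 and 75.0 for P19 NTES7, and 196, 186 and 313 for R1. In P19, 14 of the 21 markers had a mean below the array median, against 3 for P19 NTES7 and 2 for R1. Fn1 was the largest part of each sum, with means of 447, 1065 and 1414 in the same order. Mmp2 was not lowest in P19, with means of 70.7, 52.5 and 76.7. Of the 21 markers, 10 (47.6%) were lower and none higher in P19 NTES7 than in R1, where 9.44% of all genes were lower. The part of fibroblast RNA in the differences between the lines, also between P19 NTES7 and R1, was not tested. Of the 9 arrays, R1 array 3 stood farthest from its line: 3.87% of all genes lay over 0.5 log2 units above the other R1 arrays and 2.41% lay as far below them. P19 array 3 stood apart for a set of members and of hypoxia genes, which is described below.

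Most members differed little between the lines. In R1 against P19, 3 of the 32 members were higher (Pfkp, Pdk1 and Pdk4), where 10.7% of all genes were called higher. In the same comparison 8 were lower (Pfkm, Aldoc, Tpi1, Eno3, Pdk3, Dlat, Pdp1 and Slc16a3), where 14.3% of all genes were called lower. In P19 NTES7 against P19, 1 member was higher (Pdk4, with 4.89% of all genes higher) and 3 were lower (Pfkm, Ldhb and Dlat, with 7.25% of all genes lower). In P19 NTES7 against R1, 5 were higher (Aldoc, Tpi1, Eno2, Dlat and Pdp1, with 9.23% of all genes higher) and 2 were lower (Ldhb and Pdk1, with 9.44% of all genes lower). These 3 comparisons share arrays in pairs and are not independent of each other.

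Differences over 2-fold were few. In R1 against P19 no member was over 2-fold higher at any p, and 2 were called over 2-fold lower in limma (Pfkm and Aldoc), against 3.85% and 3.46% of all genes. In P19 NTES7 against P19 none was over 2-fold higher at any p and 1 was called lower (Pfkm), against 1.44% and 1.38%. In P19 NTES7 against R1, Aldoc and Eno2 were higher and Ldhb was lower, against 1.68% and 2.84%. The median log2 difference of the 32 members was -0.15, -0.023 and 0.13 in the 3 comparisons, where that of all genes was 0.019, 0.023 and 0.012. Members are brighter than most genes. With the dimmer probe sets left out of the fit, 16.3% of 10243 genes were higher and 25.1% lower in R1 than in P19, against 4 and 8 of the 30 members that remained. In that comparison the share of members called in either direction was thus near that of other bright genes.

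**Figure D1:**
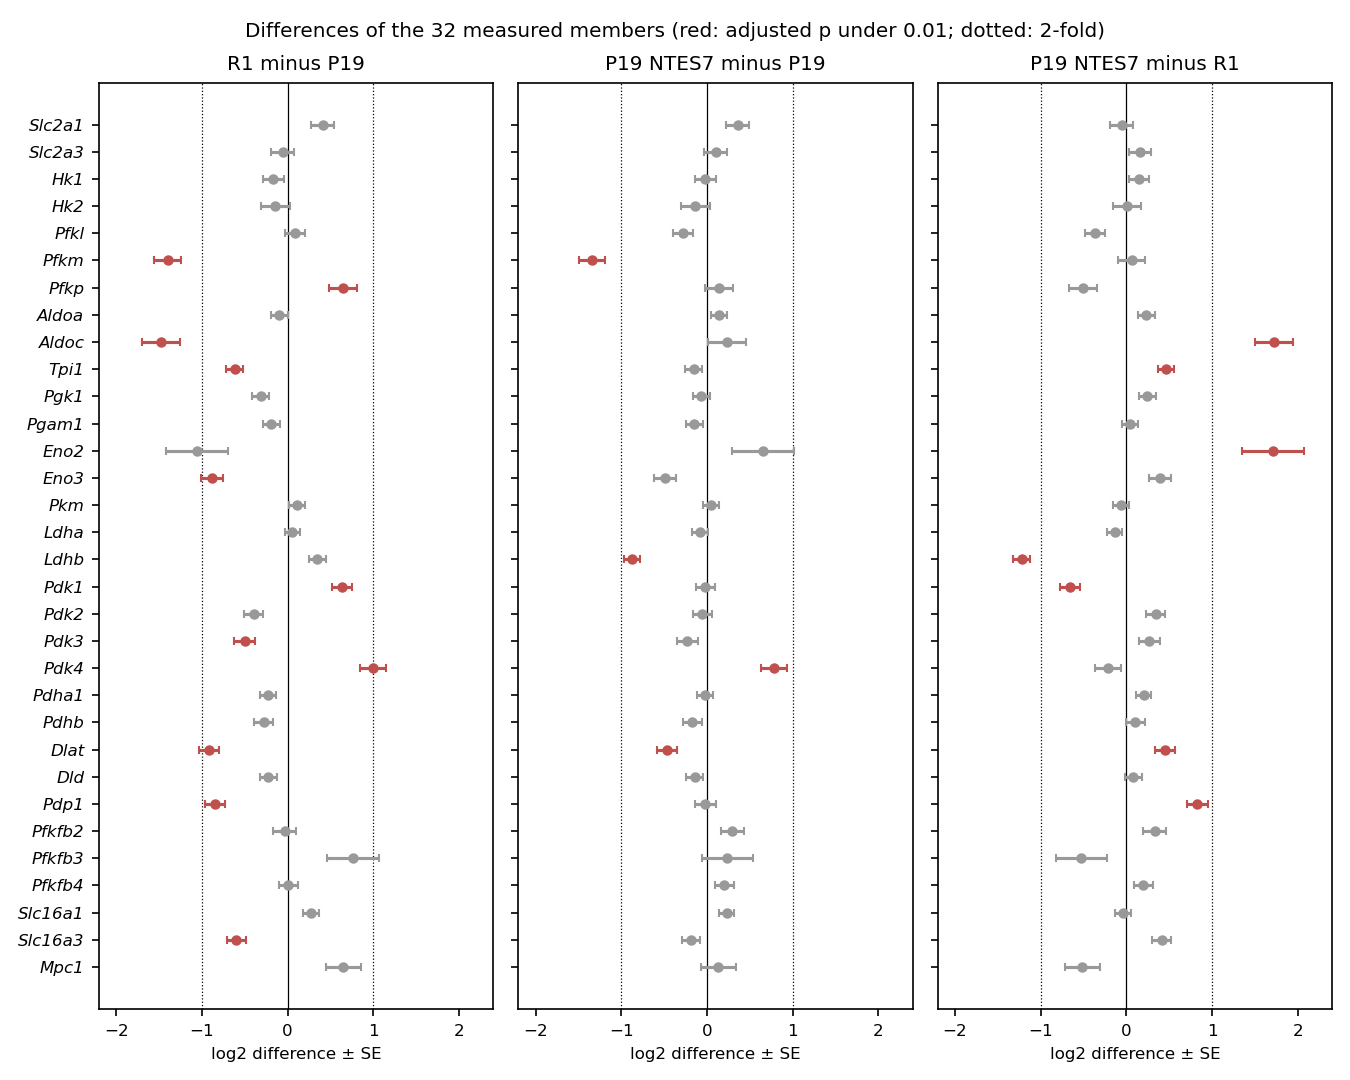
Log2 difference ± SE from limma for each of the 32 measured members, in the order of the pathway, for R1 minus P19, P19 NTES7 minus P19 and P19 NTES7 minus R1. Red points passed the adjusted p of 0.01, and dotted lines mark a 2-fold difference. Pfkm lies past 2-fold on the negative side against P19 in both R1 and P19 NTES7, while most members lie between the dotted lines.

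Phosphofructokinase is the main control point of glycolysis and is a tetramer of 3 kinds of subunit, named for muscle (Pfkm), liver (Pfkl) and platelets (Pfkp). Pfkm (probe set 10426557) separated P19 from both other lines. Its intensity was 208, 209 and 239.7 in P19, 108, 85.5 and 69.4 for P19 NTES7, and 74.2, 77.0 and 99.1 for R1. Every P19 array lay above every array of the other 2 lines, which overlapped each other. The log2 difference was -1.40 ± 0.16 (adjusted p = 9.29e-06) for R1 against P19, a 2.64-fold lower level, and -1.34 ± 0.16 (adjusted p = 3.98e-05) for P19 NTES7 against P19, a 2.53-fold lower level. Between P19 NTES7 and R1 it was 0.06 ± 0.16 (adjusted p = 0.84).

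Pfkp went the other way in R1. It was at 255, 242 and 397 in P19, 331, 335 and 298 for P19 NTES7, and 419, 425 and 526 for R1, and all 3 R1 arrays were above all arrays of the other 2 lines. Its log2 difference was 0.64 ± 0.16 (adjusted p = 0.00784) for R1 against P19, 0.14 ± 0.16 (adjusted p = 0.625) for P19 NTES7 against P19 and -0.50 ± 0.16 (adjusted p = 0.0387) for P19 NTES7 against R1. The call in R1 against P19 was lost in 13 of 20 alternative settings, and P19 array 3, at 397, lay well above its companions. Pfkl was at 370.3, 372 and 433 in P19, 379, 294 and 299 for P19 NTES7, and 401, 399 and 450.0 for R1, and none of its 3 comparisons was called (adjusted p = 0.614, 0.13 and 0.0352).

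The balance within the family followed from these values. The log2 ratio of Pfkm to Pfkl on each array averaged -0.84 ± 0.012 in P19, -1.90 ± 0.18 for P19 NTES7 and -2.33 ± 0.13 for R1 (SD; exact permutation p = 0.00357, 0.00982 after adjustment). That of Pfkp to Pfkm averaged 0.41 ± 0.27 in P19, 1.90 ± 0.25 for P19 NTES7 and 2.46 ± 0.046 for R1 (SD; exact permutation p = 0.00357, 0.00982 after adjustment). Both ratios placed the lines in separate ranges, with P19 NTES7 between P19 and R1. The exact permutation p of 0.00357 is the smallest that 3 lines of 3 arrays can give. A ratio shows that 2 probe sets changed unequally and not which subunit is the more abundant. The ratio of Pfkp to Pfkl did not pass, at -0.43 ± 0.26 in P19, -0.0056 ± 0.19 for P19 NTES7 and 0.13 ± 0.085 for R1 (SD; exact permutation p = 0.05, 0.0611 after adjustment).

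**Figure D2:**
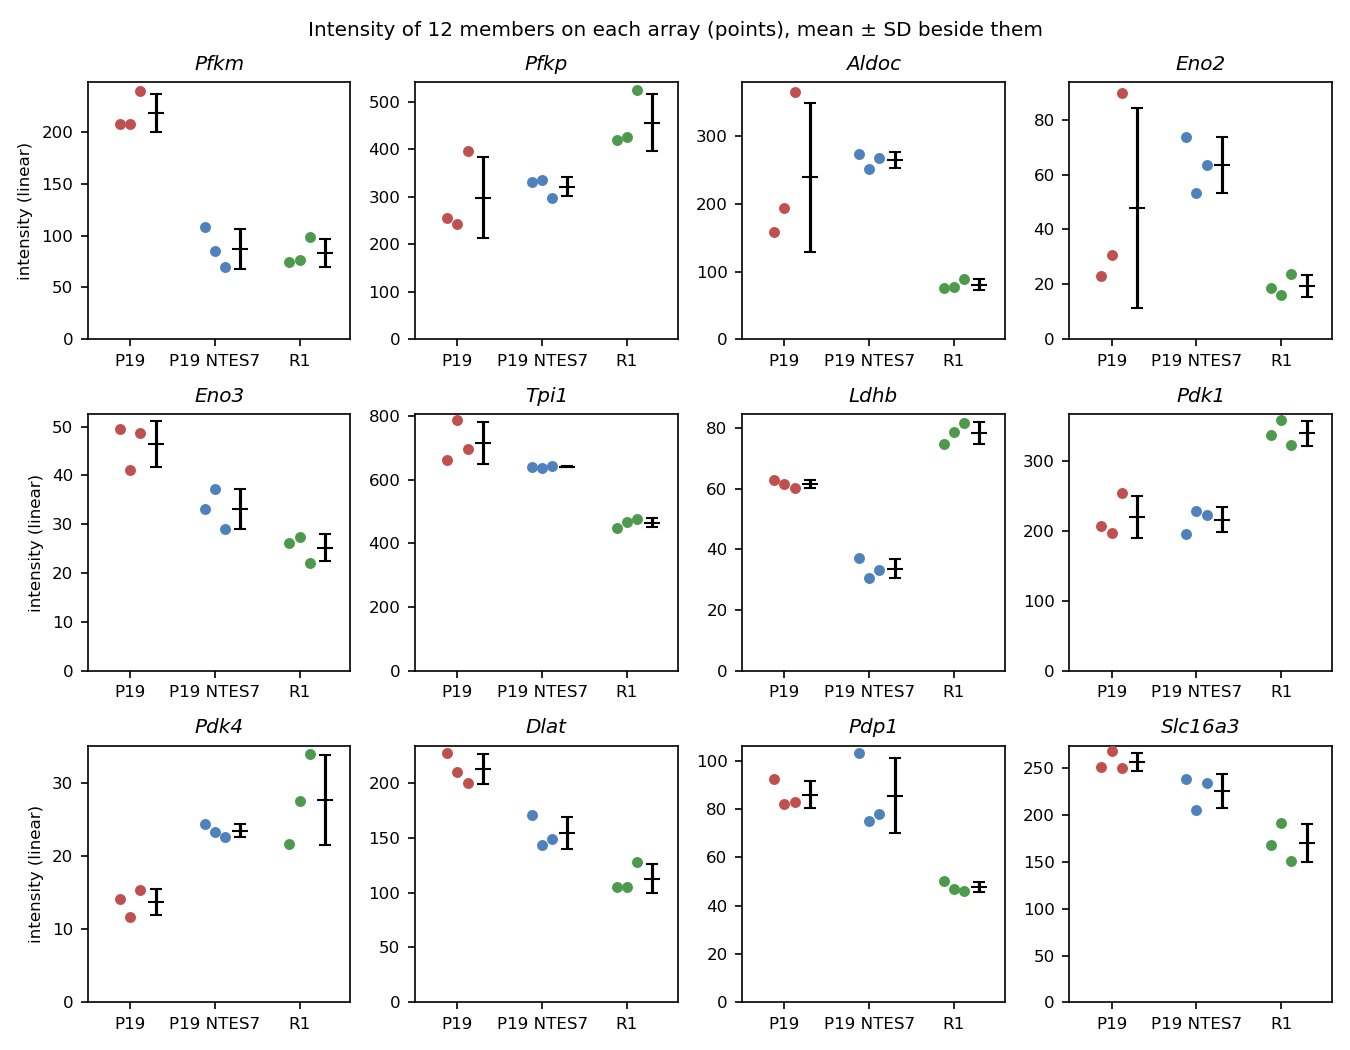
Intensity on the linear scale of 12 members on each of the 9 arrays, by line, with the mean ± SD of the 3 arrays of a line beside the points. Pfkm is high in all P19 arrays, Ldhb is low in all P19 NTES7 arrays, Pdk1 is high in all R1 arrays, and P19 array 3 stands above the other P19 arrays for Aldoc, Eno2 and Pfkp.

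Glucose enters through facilitative transporters. Slc2a1, which encodes the widely used transporter GLUT1, was at 922, 956 and 1354 in P19, 1484, 1307 and 1297 for P19 NTES7, and 1437, 1414 and 1388 for R1. The 3 comparisons were not called (adjusted p = 0.0301, 0.0843 and 0.828), and P19 array 3 alone lay in the range of the other lines. Without that array, the log2 difference was 0.59 for R1 against P19 and 0.53 for P19 NTES7 against P19. Array 3 was picked because it stood apart in these same values. The differences without it, here and for genes below, therefore show its weight and are not tests. Slc2a3, which encodes GLUT3, a high-affinity transporter, was at 1202, 1374 and 1789 in P19, 1577, 1459.6 and 1584 for P19 NTES7, and 1322, 1329 and 1492 for R1, with no call. The log2 ratio of Slc2a3 to Slc2a1 averaged 0.44 ± 0.076 in P19, 0.18 ± 0.10 for P19 NTES7 and -0.035 ± 0.12 for R1 (SD; exact permutation p = 0.00714, 0.0157 after adjustment). It was highest in P19, and the P19 NTES7 and R1 arrays overlapped.

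Hexokinase traps glucose in the cell by phosphorylating it. Hk2, the inducible isoform, was at 439, 473 and 603 in P19, 527, 420.1 and 427 for P19 NTES7, and 503, 536 and 346 for R1, with ranges that overlapped between all lines. Its largest log2 difference was -0.14 ± 0.17 (adjusted p = 0.573), for R1 against P19. For Hk1, the isoform most tissues use, the 2 probe sets with that symbol differed. The brightest (10414661) was at 695, 854 and 734 in P19, 699, 705 and 852 for P19 NTES7, and 649, 626 and 758 for R1, but the annotation names it through an accession that also stands in 16 probe sets listing Hk1 together with Rpl17, a ribosomal protein gene. Whether it measures Hk1 was not settled. The other probe set (10369541), which lists a RefSeq transcript of Hk1, was at 35.9, 38.0 and 51.8 in P19, 31.8, 29.2 and 30.9 for P19 NTES7, and 42.0, 41.9 and 38.4 for R1. On that probe set the log2 difference of P19 NTES7 was -0.43 against P19 (adjusted p = 0.0301) and -0.41 against R1 (adjusted p = 0.0302), neither called. The log2 ratio of Hk2 to Hk1 averaged -0.60 ± 0.29 in P19, -0.72 ± 0.30 for P19 NTES7 and -0.57 ± 0.49 for R1 (SD; exact permutation p = 0.886, 0.886 after adjustment) with the brightest probe set. With the other probe set its adjusted exact permutation p was 0.0437. No statement on hexokinase use therefore holds across both probe sets.

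Aldolase splits fructose bisphosphate, and its isoform Aldoc is best known from brain. Aldoc (probe set 10379153) was at 159, 195 and 365 in P19, 274, 252 and 269 for P19 NTES7, and 74.9, 77.8 and 89.4 for R1. All R1 arrays lay below all others. The log2 difference was -1.48 ± 0.22 (adjusted p = 0.000145) for R1 against P19 and 1.72 ± 0.22 (adjusted p = 6.12e-05) for P19 NTES7 against R1, a 3.29-fold higher level. P19 and P19 NTES7 differed by 0.24 ± 0.22 (adjusted p = 0.529), and the P19 arrays spread from 159 to 365 around the P19 NTES7 arrays. Without P19 array 3, these differences were -1.13 for R1 against P19 and 0.59 for P19 NTES7 against P19, given as sizes only. Aldoa, the isoform of muscle and most cells, was at 2114, 2225 and 2207 in P19, 2613, 2248 and 2355 for P19 NTES7, and 2002, 1934 and 2199 for R1, and no difference was called. The log2 ratio of Aldoc to Aldoa averaged -3.28 ± 0.60 in P19, -3.18 ± 0.062 for P19 NTES7 and -4.67 ± 0.065 for R1 (SD; exact permutation p = 0.0321, 0.0491 after adjustment).

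Triose phosphate isomerase interconverts the products of aldolase. Its gene Tpi1 was at 662, 789 and 695 in P19, 641, 638 and 642 for P19 NTES7, and 449, 467 and 478 for R1. R1 was below both other lines on every array. The log2 difference was -0.62 ± 0.095 (adjusted p = 0.000173) for R1 against P19 and 0.46 ± 0.095 (adjusted p = 0.00244) for P19 NTES7 against R1. The 2 later steps showed smaller differences. Pgk1, for phosphoglycerate kinase, had means of 1631 in P19, 1555 for P19 NTES7 and 1314 for R1, and Pgam1, for phosphoglycerate mutase, had means of 1172, 1062 and 1029. Neither was called in any comparison, and the smallest adjusted p among the 2 genes was 0.0281, for Pgk1 in R1 against P19.

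Enolase makes phosphoenolpyruvate, and the isoforms of neurons and of muscle were measured. Eno2, the neuronal isoform (probe set 10547807), was at 23.1, 30.8 and 89.7 in P19, 73.8, 53.3 and 63.4 for P19 NTES7, and 18.7, 15.99 and 23.8 for R1. Every P19 NTES7 array lay above every R1 array, with a log2 difference of 1.71 ± 0.36 (adjusted p = 0.00297), a 3.27-fold higher level, although 7 of 20 alternative settings lost the call. With the R1 arrays near the median of all probe sets, the size of this difference is uncertain. The P19 arrays ran from the R1 range to above the P19 NTES7 range, and neither the log2 difference of R1 against P19, -1.06 ± 0.36 (adjusted p = 0.0386), nor that of P19 NTES7 against P19, 0.66 ± 0.36 (adjusted p = 0.255), was called. Without P19 array 3, the log2 difference of P19 NTES7 against P19 was 1.24, and that of R1 against P19 was -0.47, given as sizes only. Eno3, the muscle isoform, was at 49.5, 41.0 and 48.7 in P19, 33.1, 37.3 and 28.9 for P19 NTES7, and 26.2, 27.4 and 22.1 for R1. R1 lay below P19 on every array, with a log2 difference of -0.88 ± 0.12 (adjusted p = 8.62e-05). P19 NTES7 lay between, at -0.49 ± 0.12 (adjusted p = 0.0136) from P19 and 0.39 ± 0.12 (adjusted p = 0.0347) from R1, neither called.

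At the end of the pathway, Pkm, for pyruvate kinase, was at 1369, 1438 and 1464 in P19, 1546, 1350.2 and 1519.5 for P19 NTES7, and 1544, 1476 and 1578 for R1, with no difference over 1.08-fold. A probe set that lists a RefSeq transcript of Pkm, which this one does not, was not called either, at a log2 difference of -0.16 (adjusted p = 0.358) for R1 against P19. The array's probe sets for Pkm were read as gene totals and say nothing of its spliced forms. Ldha, the lactate dehydrogenase subunit that favours lactate formation, was as even, at 1287, 1349 and 1334 in P19, 1301, 1252 and 1202 for P19 NTES7, and 1365, 1326 and 1435 for R1. No comparison of the 2 genes was called.

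Ldhb, the subunit most used in heart and other oxidative tissue, set P19 NTES7 apart from both other lines. Its brightest probe set (10549097) was at 62.8, 61.6 and 60.2 in P19, 37.1, 30.7 and 33.2 for P19 NTES7, and 74.6, 78.8 and 81.7 for R1. Every P19 NTES7 array lay below every other array. The log2 difference was -0.88 ± 0.10 (adjusted p = 2.84e-05) for P19 NTES7 against P19 and -1.22 ± 0.10 (adjusted p = 7.83e-07) for P19 NTES7 against R1, which is 1.83-fold and 2.33-fold lower. R1 was above P19 on every array, with a log2 difference of 0.35 ± 0.10 (adjusted p = 0.014), which was not called. A further probe set with that symbol (10462035) was at 63.0, 66.1 and 67.7 in P19, 27.2, 25.1 and 22.4 for P19 NTES7, and 73.7, 68.3 and 99.2 for R1, with the same separation of P19 NTES7. It is numbered near the probe set of Pgam1, on chromosome 19, while Ldhb lies on chromosome 6. Whether it reads Ldhb itself was not settled, so it is not a separate reading of the gene. With the 2 probe sets averaged, the log2 difference of P19 NTES7 was -1.14 against P19 (adjusted p = 5.58e-06) and -1.45 against R1 (adjusted p = 3.21e-07). The log2 ratio of Ldhb to Ldha averaged -4.43 ± 0.06 in P19, -5.22 ± 0.11 for P19 NTES7 and -4.13 ± 0.06 for R1 (SD; exact permutation p = 0.00357, 0.00982 after adjustment), and the 3 lines did not overlap.

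Lactate leaves cells through monocarboxylate transporters. Slc16a3, which encodes the exporter MCT4, was at 251, 268 and 251 in P19, 238, 205 and 234 for P19 NTES7, and 168, 192 and 151 for R1. R1 was lower than P19, at a log2 difference of -0.60 ± 0.11 (adjusted p = 0.000717) and with no overlap, and the P19 NTES7 arrays lay between the 2 lines. Slc16a1, which encodes the widely used MCT1, had means of 233 in P19, 273 for P19 NTES7 and 280 for R1, with no call (adjusted p = 0.0357 for R1 against P19). The log2 ratio of Slc16a3 to Slc16a1 averaged 0.14 ± 0.038 in P19, -0.27 ± 0.14 for P19 NTES7 and -0.73 ± 0.21 for R1 (SD; exact permutation p = 0.00357, 0.00982 after adjustment). It fell in separate ranges in the 3 lines.

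The pyruvate dehydrogenase kinases inactivate the pyruvate dehydrogenase complex, and all 4 were measured. Pdk1 (probe set 10472846), a known hypoxia target, was at 208, 198 and 255 in P19, 196, 229.7 and 223 for P19 NTES7, and 338, 359 and 324 for R1. All R1 arrays lay above all others. The log2 difference was 0.64 ± 0.11 (adjusted p = 0.00062) for R1 against P19, -0.66 ± 0.11 (adjusted p = 0.000687) for P19 NTES7 against R1 and -0.02 ± 0.11 (adjusted p = 0.932) for P19 NTES7 against P19. Pdk3 was at 186, 169.7 and 193 in P19, 187, 145 and 139.7 for P19 NTES7, and 120.4, 125 and 144 for R1 and was lower in R1 than in P19, at a log2 difference of -0.50 ± 0.12 (adjusted p = 0.00669), a call that was lost in 9 of 20 alternative settings.

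The other 2 kinases gave dim probe sets. Pdk4, which is known to rise in fasting, was at 14.1, 11.7 and 15.3 in P19, 24.4, 23.3 and 22.7 for P19 NTES7, and 21.6, 27.5 and 33.9 for R1, so that P19 lay below the median of all probe sets. It was higher in both other lines, at a log2 difference of 0.78 ± 0.15 (adjusted p = 0.00213) for P19 NTES7 against P19 and 0.996 ± 0.15 (adjusted p = 0.000141) for R1 against P19. With P19 so dim, the size of these differences is uncertain, and the call in P19 NTES7 was lost in 6 of 20 alternative settings. Pdk2 was at 19.5, 19.6 and 21.6 in P19, 21.6, 17.7 and 19.2 for P19 NTES7, and 14.2, 14.7 and 17.3 for R1 and was not called (adjusted p = 0.0136 for R1 against P19). Among the kinases, the log2 ratio of Pdk1 to Pdk3 averaged 0.26 ± 0.12 in P19, 0.47 ± 0.35 for P19 NTES7 and 1.39 ± 0.20 for R1 (SD; exact permutation p = 0.0143, 0.0262 after adjustment). Pdk1 to Pdk2 averaged 3.44 ± 0.11 in P19, 3.47 ± 0.26 for P19 NTES7 and 4.47 ± 0.21 for R1 (SD; exact permutation p = 0.0357, 0.0491 after adjustment). In both ratios R1 stood above the other 2 lines, which overlapped. Pdk3 to Pdk2 averaged 3.18 ± 0.075 in P19, 3.0 ± 0.13 for P19 NTES7 and 3.08 ± 0.013 for R1 (SD; exact permutation p = 0.0571, 0.0629 after adjustment), which did not pass.

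The complex itself differed by subunit. Dlat, for its acetyltransferase core (probe set 10593367), was at 227, 209.7 and 200.1 in P19, 170.4, 143 and 149 for P19 NTES7, and 105, 105 and 128 for R1. The 3 lines did not overlap. The log2 difference was -0.92 ± 0.11 (adjusted p = 2.14e-05) for R1 against P19, -0.47 ± 0.11 (adjusted p = 0.0095) for P19 NTES7 against P19, and 0.45 ± 0.11 (adjusted p = 0.00834) for P19 NTES7 against R1. The last 2 values lie close to the limit of 0.01, and the calls were lost in 9 and 11 of 20 alternative settings, among them the fit without P19 array 3 (adjusted p = 0.0156 and 0.0105). Pdha1 and Pdhb, for the subunits of its decarboxylase, and Dld, for its lipoamide dehydrogenase, had means in R1 of 561, 197 and 179, against 656, 240 and 210 in P19. None of these 3 was called in any comparison, and their smallest adjusted p was 0.0721. Pdp1, for the phosphatase that reactivates the complex, was at 92.6, 82.3 and 83.1 in P19, 103, 75.2 and 78.0 for P19 NTES7, and 50.2, 47.0 and 46.1 for R1. R1 was below both other lines on every array, at a log2 difference of -0.85 ± 0.12 (adjusted p = 9.74e-05) from P19, and P19 NTES7 against R1 was at 0.83 ± 0.12 (adjusted p = 0.000185). Mpc1, for a subunit of the mitochondrial pyruvate carrier, was at 15.6, 11.7 and 10.4 in P19, 13.8, 13.1 and 13.8 for P19 NTES7, and 15.0, 16.9 and 28.7 for R1, near or below the median of all probe sets except on R1 array 3, and was not called. Its probe set (10402648) is numbered between those of Dld, on chromosome 12, and Pfkp, on chromosome 13, while Mpc1 lies on chromosome 17. Whether it reads Mpc1 itself was not settled, so these values do not give the level of the carrier gene.

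The Pfkfb genes encode the enzymes that make and remove fructose 2,6-bisphosphate, the activator of phosphofructokinase. Pfkfb3 was at 51.5, 63.4 and 134 in P19, 99.1, 81.7 and 89.0 for P19 NTES7, and 159, 158 and 85.4 for R1. Within a line it varied more than most members, with P19 array 3 above its companions and R1 array 3 below its own. No comparison was called, and R1 against P19 was 0.76 ± 0.30 (adjusted p = 0.0695). Without P19 array 3 that difference was 1.18, given as a size only. Pfkfb2 had means of 49.3 in P19, 60.5 for P19 NTES7 and 47.9 for R1, and Pfkfb4 was below the array median in all 3 lines, at 11.5 to 15.99. Neither was called.

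Isoform balance was thus measured in 11 pairs of members, and the exact permutation p was adjusted over these 11. The adjusted p was under 0.05 for 8 pairs. Some pairs share a member and are not independent. How often pairs of other genes would pass was not measured, so the count does not set these families apart. The 3 that did not pass were Hk2 to Hk1, Pfkp to Pfkl and Pdk3 to Pdk2. The order of the lines was not the same from pair to pair. P19 NTES7 lay between P19 and R1 for Pfkm to Pfkl and for Slc16a3 to Slc16a1, with P19 for Aldoc to Aldoa and Pdk1 to Pdk2, and outside both for Ldhb to Ldha.

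**Figure D3:**
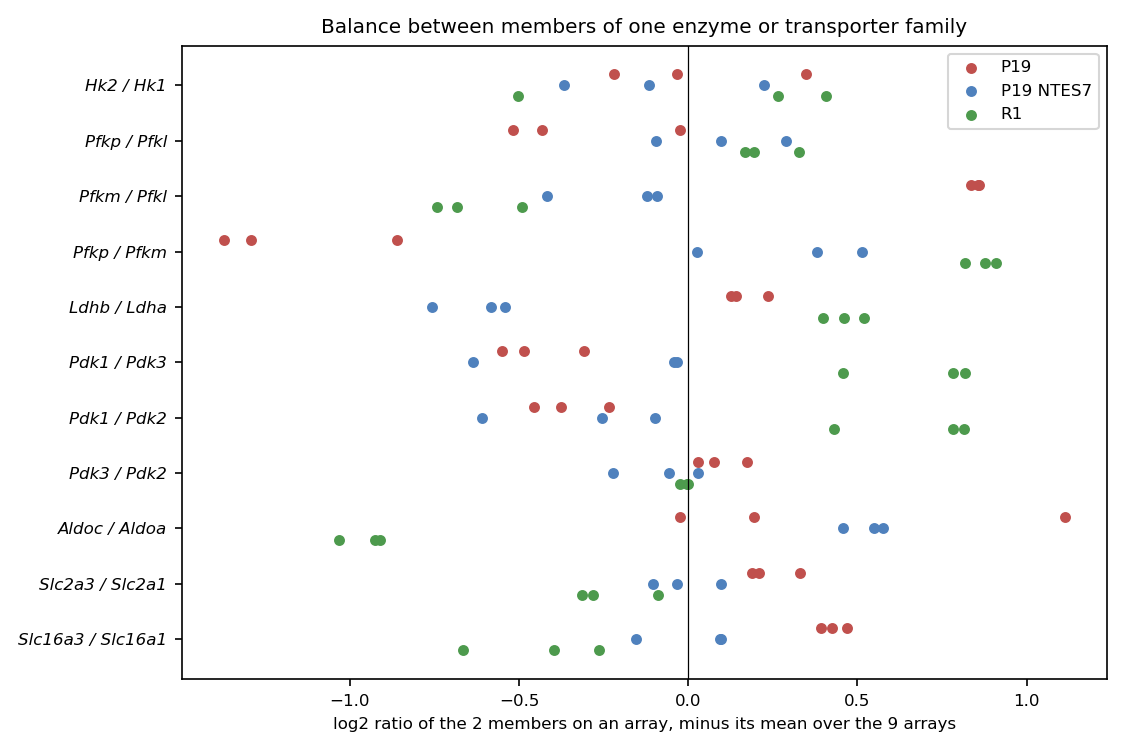
Log2 ratio of 2 members of a family on each array, minus the mean of that ratio over the 9 arrays, for 11 pairs, with 1 point per array and a colour per line. Zero is the mean over all arrays, not equal abundance. P19 stands apart for Pfkm / Pfkl, P19 NTES7 for Ldhb / Ldha, and R1 for Aldoc / Aldoa and the 2 Pdk1 ratios.

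The third P19 array differed from the other 2 P19 arrays in a set of members. Of the 32 members, 5 lay over 0.5 log2 units above the mean of the other P19 arrays, where 1.29% of all genes did, and none lay as far below. These were Slc2a1 (0.53), Pfkp (0.67), Aldoc (1.05), Pfkfb3 (1.23) and Eno2 (1.75), with the log2 difference of array 3 from its companions in parentheses. Of 20 HIF factors and hypoxia targets outside glycolysis, 10 lay over 0.5 above. They included Adm (1.88), a vasodilator peptide gene, Ndrg1 (1.87), a stress-induced gene, and Egln3 (1.33), which encodes a prolyl hydroxylase that marks HIF for decay. Ndrg1 was at 77.8, 127 and 363 in P19, 524, 392 and 455 for P19 NTES7, and 173, 184 and 138 for R1. Median deviations were 0.087 for the members, 0.50 for the hypoxia genes and -0.0011 for all genes. These arrays are repeats of 1 line in 1 medium, and no label separates array 3 from the others. R1 array 3 was below its companions for Pfkfb3 (-0.89), Egln3 (-0.74), Adm (-0.62) and Hk2 (-0.59). It was above them for Eno2 (0.46), Pfkp (0.32) and Aldoc (0.23), and Slc2a1 was at -0.038. Mpc1 (0.85) was the member farthest above. Median deviations on R1 array 3 were 0.12 for the members and -0.16 for the hypoxia genes, so that it did not mirror P19 array 3 for the members.

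**Figure D4:**
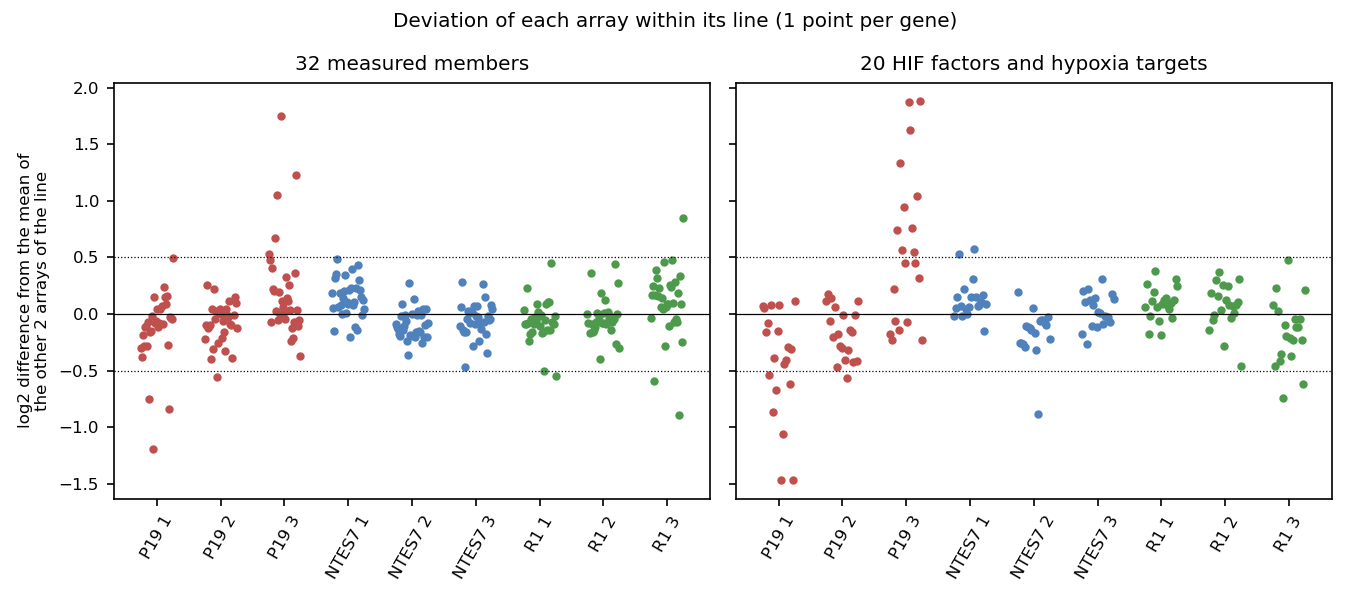
Log2 difference of each array from the mean of the other 2 arrays of its line, with 1 point per gene, for the 32 measured members and for 20 HIF factors and hypoxia targets. Dotted lines mark 0.5 on either side of zero. On P19 array 3, 5 members and 10 hypoxia genes lie above the upper line and none lies below the lower one.

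The promoters of the 5 members that stood apart together on P19 array 3 are shown, because HIF, the oxygen-responsive transcription factor, is known to bind a short core with the letters ACGTG or GCGTG. Capitals mark these letters on either strand, so that CACGT and CACGC are marked as well, and overlapping matches such as CACGTG run together. Each window is the 250 bases before a RefSeq gene start in the build GRCm38.p6, read 5′ to 3′ on the gene's strand, and for Aldoc and Pfkfb3 the first of 2 listed starts is given. The windows lie at chr4:119108495-119108744 (plus strand) for Slc2a1, chr13:6648772-6649021 (minus strand) for Pfkp, chr11:78322823-78323072 (plus strand) for Aldoc, chr2:11553930-11554179 (minus strand) for Pfkfb3 and chr6:124769674-124769923 (minus strand) for Eno2.
Slc2a1: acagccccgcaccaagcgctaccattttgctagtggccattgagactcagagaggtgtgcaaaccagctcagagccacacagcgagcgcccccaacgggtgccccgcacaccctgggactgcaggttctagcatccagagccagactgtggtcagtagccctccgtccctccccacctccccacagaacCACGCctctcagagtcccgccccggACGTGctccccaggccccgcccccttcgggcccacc
Pfkp: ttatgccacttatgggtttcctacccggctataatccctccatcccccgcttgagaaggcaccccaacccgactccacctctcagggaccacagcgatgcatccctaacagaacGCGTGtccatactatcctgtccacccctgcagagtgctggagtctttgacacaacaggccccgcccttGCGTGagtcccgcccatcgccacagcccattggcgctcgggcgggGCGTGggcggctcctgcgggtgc
Aldoc: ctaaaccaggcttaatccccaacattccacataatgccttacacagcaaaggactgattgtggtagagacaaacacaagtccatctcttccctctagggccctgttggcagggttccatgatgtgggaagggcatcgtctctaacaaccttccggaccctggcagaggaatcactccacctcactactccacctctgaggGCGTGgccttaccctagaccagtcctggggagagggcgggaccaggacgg
Pfkfb3: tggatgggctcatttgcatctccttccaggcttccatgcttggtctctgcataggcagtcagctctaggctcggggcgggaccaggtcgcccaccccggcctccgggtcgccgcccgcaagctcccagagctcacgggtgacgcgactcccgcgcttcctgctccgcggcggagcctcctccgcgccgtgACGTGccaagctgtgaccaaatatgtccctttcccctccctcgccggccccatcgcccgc
Eno2: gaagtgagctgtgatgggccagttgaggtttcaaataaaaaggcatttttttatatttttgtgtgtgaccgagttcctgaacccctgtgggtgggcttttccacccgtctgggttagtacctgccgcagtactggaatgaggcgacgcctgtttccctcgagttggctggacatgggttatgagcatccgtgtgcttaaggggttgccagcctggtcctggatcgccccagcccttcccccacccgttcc

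The letters occur in the windows of Slc2a1, Pfkp, Aldoc and Pfkfb3 and not in that of Eno2, which deviated most. Among the measured members with a listed promoter, 26 of 30 held them in at least 1 window (86.7%), against 49.9% of 15614 measured genes. By window the shares were 75.6% of 45 and 38.6% of 32851. Both cores contain CG, which is frequent in the promoters of widely expressed genes, and its part in these shares was not tested. Since the letters are in most member promoters, they do not separate the 5 members from the others, and a match does not show that a factor binds there.

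Neighbouring pathways were counted for comparison. For R1 against P19, 10.7% of all genes were higher and 14.3% lower, and 16.3% and 25.1% of the brighter genes. For P19 NTES7 against P19 the shares were 4.89% and 7.25%, and 7.63% and 13.2% of the brighter genes. For P19 NTES7 against R1 they were 9.23% and 9.44%, and 16.6% and 16.1% of the brighter genes. Of 31 other genes of glycolysis, gluconeogenesis and pyruvate use, 1 was higher and 10 were lower (32.3%) in R1 than in P19, 1 was higher and 3 were lower in P19 NTES7 relative to P19, and 8 were higher (25.8%) and none lower in P19 NTES7 than in R1 by limma (2 at an unadjusted p under 0.05). The median log2 difference of these genes was -0.14, -0.044 and 0.072 in the 3 comparisons. The largest differences in R1 against P19 were those of Pck2, the mitochondrial phosphoenolpyruvate carboxykinase, at -2.23 ± 0.12 (adjusted p = 7.69e-09), the phosphoglucomutase gene Pgm1, at -1.65 ± 0.16 (adjusted p = 3.02e-06), and Me1, the cytosolic malic enzyme, at -1.24 ± 0.12 (adjusted p = 3.44e-06). Of 19 genes listed for the tricarboxylic acid cycle, 1 was higher and 9 were lower in R1 than in P19. That is 47.4% lower against 25.1% of the brighter genes, among which all of these lie. The counts were 1 and 4 in P19 NTES7 against P19, and 6 and 1 in P19 NTES7 against R1, with medians of -0.32, -0.11 and 0.22. Idh1, the cytosolic isocitrate dehydrogenase, differed by -1.04 ± 0.15 (adjusted p = 0.000105) in R1 against P19, and Suclg2, a subunit of succinyl-CoA ligase, by -1.01 ± 0.12 (adjusted p = 1.34e-05). The list also holds Aco1 and Mdh1, whose enzymes are cytosolic as well, with means of 286 and 379 in P19 and 157 and 236 for R1. These cytosolic enzymes are not part of the mitochondrial cycle, and the share without them was not counted. Of 9 genes of the pentose phosphate pathway, 2 were higher (22.2%) and 2 lower in R1 than in P19, none higher (1 at an unadjusted p under 0.05 in limma) and 1 lower (11.1%) in P19 NTES7 relative to P19, and 1 higher and 1 lower in P19 NTES7 relative to R1.

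The hypoxia list had 10% called in each direction where 2 genes were called. Of its 20 genes, 2 were higher and 2 lower in R1 than in P19, none higher by limma (2 at an unadjusted p under 0.05) and 2 lower in P19 NTES7 relative to P19, and 2 higher and 2 lower in P19 NTES7 relative to R1. Epas1, which encodes HIF-2alpha, was higher in R1 than in P19 at a log2 difference of 1.98 ± 0.14 (adjusted p = 9.93e-08), and Bnip3, a mitophagy receptor gene, was lower at -1.32 ± 0.14 (adjusted p = 5.52e-06). Hif1a itself was at 253, 258 and 226 in P19, 142, 157 and 132 for P19 NTES7, and 236, 215 and 239 for R1, and was lower in P19 NTES7 than in P19, at a log2 difference of -0.77 ± 0.10 (adjusted p = 0.000123). Of 13 regulators of glycolysis genes, 5 were higher (38.5%) and 4 lower (30.8%) in R1 than in P19, 4 higher (30.8%) and 1 lower (7.69%) in P19 NTES7 relative to P19, and 2 higher (15.4%) and 3 lower (23.1%) in P19 NTES7 relative to R1. These shares are read against those of all and of brighter genes given above. Txnip, whose protein restrains glucose uptake, was higher in P19 NTES7 than in P19, by 1.49 ± 0.20 (adjusted p = 0.000156), and in R1 than in P19, by 0.86 ± 0.20 (adjusted p = 0.0048). Myc, which is known to raise the transcription of glycolysis genes, was higher in R1 than in P19, by 1.44 ± 0.24 (adjusted p = 0.000405). It was at 76.6, 73.1 and 34.1 in P19 and 170, 172 and 130 for R1, so that P19 array 3 widens this difference. Esrrb and Tfcp2l1, of the same list, differed more, with means of 9.26 and 12.6 in P19 and 229.8 and 333 for R1.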

How the data were processed

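RNA of 3 mouse lines was hybridised to 9 Affymetrix Gene 1.0 ST arrays from 100 ng of total RNA each. The authors made the deposited intensity values with RMA and left them on the linear scale. The version of RMA and a genome build are not given in the sources used here, and the median scaling of the methods is not seen in the values. The number of arrays limits the precision.

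The log2 intensities (28853 probe sets) went into a single limma fit of line means (limma 3.58.1 under R 4.3.3), which was first tested on simulated data. P-values were adjusted over all probe sets by the Benjamini-Hochberg method. The annotation names 1 symbol for 21789 probe sets, several for 1621 and none for 5443, and only the first kind was named. Pairs of isoforms were compared by an exact permutation test of the F statistic over the 9 arrays. Per-array values are given for members past 2-fold, for the isoform families and for members with the smallest adjusted p. Values of Slc2a1, Slc2a3, Pkm, Pfkfb3 and Mpc1 were added after they were seen. The members and lists were chosen with earlier results of these data known. Promoters come from RefSeq. Other scalings, filters, tests and left-out arrays were tried.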

Additional observations from a re-analysis of the deposited data

How the results depend on the processing

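Of 22 member differences called, 8 kept their call under all 20 alternative settings: Pfkm in R1 and in P19 NTES7 against P19, Ldhb in P19 NTES7 against both other lines, Pdk1 in R1 against both, and Dlat and Tpi1 in R1 against P19. No called difference changed direction. Among the 74 not called, 20 changed sign under some setting, and none of those exceeded 0.24 log2 units. Same-numbered arrays did not deviate together (correlations from -0.223 to 0.0404), so that the numbers were not taken as pairs. A replicate block gave 3 higher and 7 lower members in R1 against P19, 1 and 2 in P19 NTES7 against P19, and 4 and 2 in P19 NTES7 against R1. It lost only Pdk3 in R1 against P19 and Dlat in P19 NTES7 against P19 and against R1.

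In R1 against P19, the members higher numbered 5 with quantile normalization and the members lower 3 with the methods' test after adjustment. Those past 2-fold numbered 1 with the methods' test, adjusted or not. In P19 NTES7 against P19, the members higher numbered 0 with 16 added before log2 and with the adjusted methods' test. The members lower numbered 8 with the methods' test and 5 after adjustment, and those past 2-fold numbered 2 with all probe sets averaged, through Ldhb. In P19 NTES7 against R1, the adjusted methods' test gave 3 higher, and those past 2-fold numbered 1 with 16 added and with the methods' test, adjusted or not. The methods' test is made over the 3 lines at once. The causes were not tested.

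Leaving out 1 array at a time gave 2 to 5 members higher, 7 to 9 lower and 2 to 4 past 2-fold in R1 against P19. It gave 0 to 4 higher and 1 to 2 past 2-fold in P19 NTES7 against P19, and 3 to 5 higher in P19 NTES7 against R1. Without P19 array 3, 5 members were higher and 4 past 2-fold in R1 against P19, and 4 higher and 2 past 2-fold in P19 NTES7 against P19. That array was seen to stand apart for some of these members, so the further calls are not separate support. Without P19 array 1, 4 were past 2-fold in R1 against P19. The count of 0 came without P19 array 2, P19 NTES7 array 1 or P19 NTES7 array 2, and the count of 3 without P19 NTES7 array 1 or 3 or R1 array 1 or 2. The adjusted exact p ran from 0.0246 to 0.118 for Pfkp to Pfkl, lowest without P19 array 3, and from 0.00786 to 0.255 for Pdk3 to Pdk2, lowest without P19 NTES7 array 1. For the other pairs no left-out array changed the call. The probe set of Hk1 with a RefSeq transcript, an alternative added after seeing the data, gave 0.0437 for Hk2 to Hk1. The replicate block left the mean ratios as they were, so that R1 minus P19 stayed at -1.49 for Pfkm to Pfkl.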
